A study of Mus musculus with 16 samples.

Results

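The 37 genes described here encode collagens, other proteins of the extracellular matrix, and the enzymes, inhibitors and cytokine that build and remodel it. They were listed by name from 17410 genes in the deposited tables, by a rule that uses no measured value but was made with earlier results of these data known. All 37 were listed in all 16 livers, and all 37 passed the filter on low counts in each of the 4 comparisons made. They fall into 9 roles: 6 fibrillar collagens, 6 genes of the basement membrane, 5 other collagens, 7 glycoproteins and elastic fibre genes, 3 crosslinking enzymes, 3 proteases, 3 protease inhibitors, 3 proteoglycans and the cytokine gene Tgfb1.

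The study sequenced RNA from mouse livers in a pair of experiments on ChREBPα, the full-length isoform of the carbohydrate response element binding protein, a transcription factor of sugar and lipid metabolism encoded by Mlxipl. In the first, mice of the Chrebpα-flox/flox line were given adeno-associated virus that carried either GFP (Chrebpα-WT, WT_NASH in the plots) or Cre (Chrebpα-LKO, LKO_NASH). The promoter of both viruses, TBG, drives expression in hepatocytes, so the Cre group models a loss in hepatocytes only, and the controls carry the floxed allele too. Both groups ate a NASH diet for 12 weeks, with palm oil as fat at 40 kcal%, fructose at 20 kcal% and cholesterol at 2%. In the second, wildtype mice aged 2 months ate the HFLMCD diet, which has 45 kcal% fat, no choline and 0.1% added methionine, for 3 weeks by the sample labels. They received adenovirus with GFP (Ad-GFP, Ad_GFP_HFLMCD) or Chrebpα (Ad-Chrebpα, Ad_Chrebpa_HFLMCD) and stayed on the diet for 1 more week. Each group has 4 livers: 9 to 12 for Ad-GFP, 13 to 16 for Ad-Chrebpα, 17 to 20 for Chrebpα-WT and 21 to 24 for Chrebpα-LKO. Neither the age of the NASH diet mice nor the sex of any mouse is in the labels, and livers of mice on chow were not analysed here.

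The extracellular matrix of the liver is made mainly by stellate cells and portal fibroblasts, with contributions from endothelial cells and, for fibronectin and collagen XVIII, from hepatocytes. In fibrosis, stellate cells activated by TGF-β and other signals become myofibroblasts that secrete fibrillar collagens I and III. Lysyl oxidases crosslink the fibres, matrix metalloproteinases cut them, and tissue inhibitors of metalloproteinases (TIMPs) block that cutting. Collagen IV and laminins form basement membranes, which the healthy liver sinusoid largely lacks as a continuous sheet.

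To show the DNA next to some of the genes whose values are given below, 150 bases before the annotated start of 4 members follow, from RefSeq (build GRCm38.p6). They are the member with the lowest fold change between the control groups (Mmp13), an abundant fibrillar collagen (Col3a1), the fibrillar collagen that differed in the opposite direction (Col5a3) and the cytokine (Tgfb1). Each reads 5′ to 3′ on the strand of the gene, so the start follows its right end. Capitals mark a match on either strand to the letters of the TATA box (TATAAA), the CCAAT box (letters CCAAT) or the GC box (letters GGGCGG). A match is marked at any distance from the start, so it need not be a working element. In Col3a1 the TATAAA lies further from the start than in Mmp13.
Mmp13, chr9:7272364-7272513, plus strand: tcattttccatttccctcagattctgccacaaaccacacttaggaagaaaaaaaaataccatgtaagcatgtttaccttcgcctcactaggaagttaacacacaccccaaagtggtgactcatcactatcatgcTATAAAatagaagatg
Col3a1, chr1:45311388-45311537, plus strand: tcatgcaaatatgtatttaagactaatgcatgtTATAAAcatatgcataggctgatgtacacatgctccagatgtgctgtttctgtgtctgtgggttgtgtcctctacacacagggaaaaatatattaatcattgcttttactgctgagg
Col5a3, chr9:20815068-20815217, minus strand: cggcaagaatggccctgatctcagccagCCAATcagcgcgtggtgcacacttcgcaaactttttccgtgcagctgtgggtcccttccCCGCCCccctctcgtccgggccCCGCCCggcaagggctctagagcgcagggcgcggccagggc
Tgfb1, chr7:25686852-25687001, plus strand: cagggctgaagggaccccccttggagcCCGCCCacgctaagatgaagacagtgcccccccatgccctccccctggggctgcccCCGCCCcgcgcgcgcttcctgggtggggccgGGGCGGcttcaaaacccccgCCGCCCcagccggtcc
The Mmp13 and Col3a1 windows hold TATAAA, and the Tgfb1 and Col5a3 windows hold GGGCGG. RefSeq windows were found for 24 of the 37 members, in 27 windows because some genes have several starts. Over the 250 bases before the start and both strands, TATAAA was in 4 of the 27 windows, against 12.37% of all 32851 windows of the table. CCAAT was in 10 of 27 against 33.85%, and GGGCGG in 16 of 27 against 32.74%; none of these words overlaps another as searched. CACGTG, the E-box word that forms part of the element ChREBP binds, was in 0 of the 27 windows and in 6.02% of all windows. These counts describe letters in these windows only. Col4a1 and Col4a2 are neighbours on chromosome 8, transcribed in opposite directions, and their RefSeq starts lie 21 bases apart.

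Library totals ran from 21254937 to 40327264 expected counts, and chi-square per degree of freedom between livers of the same group was 17.2 or more, so no library repeated another. The labels number the livers without saying that each is a separate mouse, so the p-values rest on the spread between libraries, which may be partly technical. Mlxipl did not separate the groups of either experiment: it was at 38.95 to 48.47 FPKM (fragment counts divided by transcript length in kilobases and by library size) in the Ad-GFP livers and 44.7 to 47.83 in the livers labelled Ad-Chrebpα. In the Chrebpα-WT livers it was at 50.08 to 80.4 FPKM and in the livers labelled Chrebpα-LKO at 47.46 to 100.11. The gene's row does not tell its isoforms apart, so it does not check the deletion of ChREBPα. Added Chrebpα RNA counted to this gene would raise its total whichever isoform it came from, but no clear rise was seen. Mlxipl was higher in the Ad-Chrebpα livers by only 0.15 ± 0.07 in log2 units (edgeR, adjusted p = 0.241). This row therefore does not show the overexpression at the time of sampling. Over all genes tested, livers 22, 23 and 24 lay at -22.8 to -25.2 on the first principal component of the NASH diet livers, and liver 21, labelled Chrebpα-LKO, lay at 19.9, among the Chrebpα-WT livers at -1.3 to 29.4. The Chrebpα-WT liver nearest the other Chrebpα-LKO livers was liver 19, at -1.3, so results of that experiment are also given without livers 19 and 21.

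The first question is how much matrix RNA the control livers of the 2 experiments held. Of the 37 genes, 33 were lower in the Chrebpα-WT livers on the NASH diet than in the Ad-GFP livers on the HFLMCD diet, 3 were higher and only Timp3 was not called. Fibrillar collagens I and III, the protease Mmp13, the crosslinking enzyme Lox and elastin were among the genes with the largest differences, and Col5a3, Col18a1 and Fn1 were the 3 that were higher. The test was edgeR's quasi-likelihood test on counts with Benjamini-Hochberg adjustment over 13488 genes, called at an adjusted p under 0.05. Over all genes tested, 30.9% were called lower and 28.2% higher in this comparison. The median log2 fold change of the members was -1.99, against -0.01 for all genes, and they ranged from -5.25 (Mmp13) to 1.27 (Col5a3). On this scale 1 unit is a 2-fold difference. Diet, its length, virus and mouse line differ together between these groups and cannot be told apart. In bulk liver RNA, fewer cells of a type and less RNA per cell cannot be told apart either.

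FPKM values are given below for the level of each gene, since they divide by transcript length and allow levels of different genes to be compared. Between the experiments they carry a shift: the median over all genes tested of the difference in log2(FPKM + 0.1) was -0.605, and 68.9% of all genes had every Chrebpα-WT liver below every Ad-GFP liver in FPKM. On the log2(FPKM + 1) scale 6.98% of the genes called were higher, against 47.7% in the fit of counts. The fold changes of the count fit are relative to the typical gene and do not carry this shift. With FPKM, 33 members had every Chrebpα-WT liver below every Ad-GFP liver, a count to be read against that 68.9%. The test on log2(FPKM + 1) called 33 members lower and 0 higher.

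**Figure D1:**
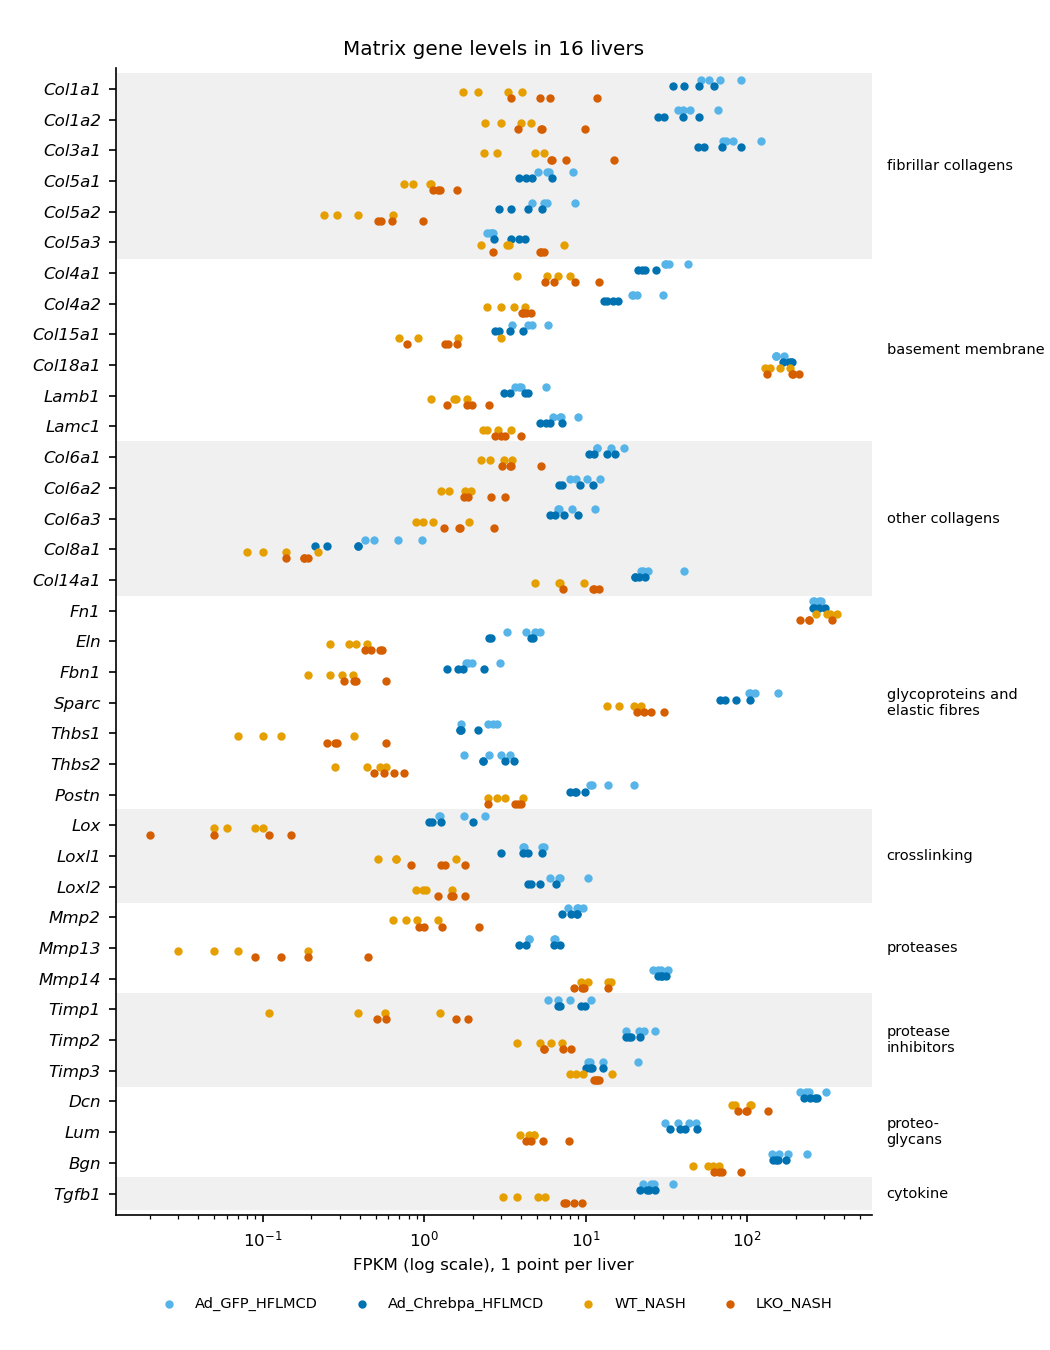
FPKM of the 37 matrix genes in 16 livers on a log scale, 1 point per liver, coloured by group and ordered by role. For 33 of the genes all 4 Chrebpα-WT livers lie to the left of all 4 Ad-GFP livers, and for Col5a3, Col18a1, Fn1 and Timp3 these groups overlap.

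Among the fibrillar collagens, which form the banded fibres of scar and connective tissue, 5 of 6 were lower in the Chrebpα-WT livers and 1 was higher, with a median of -3.23. Col1a1, the α1 chain of collagen I, was at 57.9, 91.6, 52.1 and 68.1 FPKM in the Ad-GFP livers, 50.4, 40.5, 62.5 and 34.6 in the Ad-Chrebpα livers, 1.74, 2.15, 3.31 and 4.01 in the Chrebpα-WT livers and 5.18, 3.47, 5.99 and 11.8 in the Chrebpα-LKO livers. Every HFLMCD diet liver lay above every NASH diet liver, and the fold change between the control groups was -3.97 ± 0.26 (SE; adjusted p = 2.74e-06, edgeR). Col1a2, the α2 chain of the same fibre, was at 39.9, 66.2, 37.4 and 44.5 FPKM in the Ad-GFP livers, 39.9, 30.5, 50.7 and 28 in the Ad-Chrebpα livers, 2.38, 2.98, 4 and 4.58 in the Chrebpα-WT livers and 5.3, 3.82, 5.35 and 9.91 in the Chrebpα-LKO livers, a fold change of -3.13 ± 0.22. Col3a1, the chain of collagen III, which is laid down with collagen I, was at 70.6, 122, 73.6 and 81.6 FPKM in the Ad-GFP livers, 70.1, 53.99, 91.8 and 49.9 in the Ad-Chrebpα livers, 2.36, 2.82, 4.84 and 5.53 in the Chrebpα-WT livers and 6.14, 6.17, 7.6 and 14.95 in the Chrebpα-LKO livers. It was the most abundant fibrillar collagen by mean FPKM in each group but Chrebpα-WT, where Col5a3 was at 4.04 ± 2.25 and Col3a1 at 3.89 ± 1.54 (SD, n = 4), and its fold change was -3.87 ± 0.28 (adjusted p = 4.06e-06, edgeR).

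Collagen V nucleates collagen I fibres, and its 3 chain genes did not move alike. Col5a1 was at 5.77, 8.4, 5.06 and 5.92 FPKM in the Ad-GFP livers, 4.64, 3.86, 6.15 and 4.3 in the Ad-Chrebpα livers, 0.75, 0.85, 1.11 and 1.08 in the Chrebpα-WT livers and 1.13, 1.21, 1.25 and 1.59 in the Chrebpα-LKO livers, and its fold change between the control groups was -2.10 ± 0.16. Col5a2 was at 5.49, 8.64, 4.67 and 5.73 FPKM in the Ad-GFP livers, 4.42, 3.46, 5.34 and 2.91 in the Ad-Chrebpα livers, 0.24, 0.29, 0.39 and 0.64 in the Chrebpα-WT livers and 0.63, 0.52, 0.54 and 0.99 in the Chrebpα-LKO livers, and its fold change was -3.32 ± 0.27. Both had every Chrebpα-WT liver below every Ad-GFP liver. Col5a3, the less common chain, was at 2.44, 2.63, 2.57 and 2.65 FPKM in the Ad-GFP livers, 3.44, 2.71, 3.85 and 4.21 in the Ad-Chrebpα livers, 2.25, 3.33, 7.33 and 3.25 in the Chrebpα-WT livers and 2.66, 5.5, 5.19 and 5.31 in the Chrebpα-LKO livers. Its groups overlapped in FPKM, since Chrebpα-WT livers 17, 18 and 20 were at 2.25 to 3.33 and liver 19 was at 7.33. In counts it was higher in the Chrebpα-WT livers by 1.27 ± 0.29 (SE; adjusted p = 0.00399, edgeR), and by 0.82 to 1.47 when each liver was left out in turn.

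The ratio of the collagen I chains also differed between the experiments. FPKM of Col1a1 over that of Col1a2 was, per liver, 1.38 to 1.53 in the Ad-GFP livers and 1.23 to 1.33 in the Ad-Chrebpα livers, but 0.721 to 0.876 in the Chrebpα-WT livers and 0.908 to 1.19 in the Chrebpα-LKO livers. Col1a1 over Col3a1 showed no such gap, at 0.562 to 0.844 over all 16 livers. These ratios are descriptions with no test.

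Of the 6 basement membrane genes, 5 were lower in the Chrebpα-WT livers, with smaller differences than the fibrillar chains (median -0.91). Col4a1, which with Col4a2 forms the main network of basement membranes, was at 33.04, 43.3, 31 and 31.3 FPKM in the Ad-GFP livers, 20.99, 23.4, 27.3 and 22.3 in the Ad-Chrebpα livers, 6.72, 3.74, 5.77 and 7.95 in the Chrebpα-WT livers and 12.2, 6.36, 5.62 and 8.59 in the Chrebpα-LKO livers. Col4a2 was at 20.7, 30.1, 19.7 and 19.3 FPKM in the Ad-GFP livers, 12.9, 13.5, 15.9 and 14.7 in the Ad-Chrebpα livers, 2.45, 2.99, 3.58 and 4.19 in the Chrebpα-WT livers and 4.06, 4.07, 4.3 and 4.59 in the Chrebpα-LKO livers. For both, every Chrebpα-WT liver was below every Ad-GFP liver, with fold changes of -1.9 ± 0.19 and -2.14 ± 0.17. Mean FPKM of Col4a1 was above that of Col4a2 in each group, and their ratio per liver was 1.44 to 1.73 on the HFLMCD diet and 1.25 to 2.99 on the NASH diet.

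Col15a1, a collagen found at the outer face of basement membranes, was at 3.5, 5.85, 4.41 and 4.67 FPKM in the Ad-GFP livers, 2.91, 3.39, 4.09 and 2.76 in the Ad-Chrebpα livers, 0.92, 0.7, 1.63 and 3 in the Chrebpα-WT livers and 1.4, 0.78, 1.35 and 1.6 in the Chrebpα-LKO livers. Its fold change of -0.94 ± 0.35 (adjusted p = 0.0405, edgeR) was the weakest call among the 33. It stayed below an adjusted p of 0.05 in 2 of the 8 fits that left out 1 liver, with a range of 0.00147 to 0.101. The laminin chains Lamb1 and Lamc1, which form the laminin network, were also lower. Lamb1 was at 3.98, 5.7, 3.87 and 3.64 FPKM in the Ad-GFP livers, 3.13, 3.41, 4.19 and 4.39 in the Ad-Chrebpα livers, 1.11, 1.57, 1.85 and 1.53 in the Chrebpα-WT livers and 1.39, 1.98, 1.83 and 2.51 in the Chrebpα-LKO livers. Lamc1 was at 7.04, 8.99, 6.3 and 6.92 FPKM in the Ad-GFP livers, 5.71, 5.24, 7.1 and 5.99 in the Ad-Chrebpα livers, 2.33, 2.44, 2.88 and 3.47 in the Chrebpα-WT livers and 3, 2.74, 3.15 and 3.99 in the Chrebpα-LKO livers. Neither overlapped between the control groups, and their fold changes were -0.87 ± 0.17 and -0.77 ± 0.12.

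Col18a1, which encodes collagen XVIII, the precursor of endostatin, stood apart from the other basement membrane genes in level. It was at 169.7, 151, 150.4 and 151 FPKM in the Ad-GFP livers, 186, 181, 167 and 191 in the Ad-Chrebpα livers, 129, 160.3, 183 and 139.6 in the Chrebpα-WT livers and 133, 193, 209.6 and 189 in the Chrebpα-LKO livers. Its FPKM overlapped in the control groups, and in counts it was higher in the Chrebpα-WT livers by 0.60 ± 0.13 (SE; adjusted p = 0.00273, edgeR). On the log2(FPKM + 1) scale, where all genes shifted by -0.432 relative to the count fit, it was at -0.03 and was not called.

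All 5 other collagens were lower in the Chrebpα-WT livers, with a median of -1.64. Collagen VI forms beaded filaments around cells. Its chain Col6a1 was at 11.8, 17.3, 11.7 and 14.3 FPKM in the Ad-GFP livers, 13.6, 10.5, 15.2 and 11.3 in the Ad-Chrebpα livers, 2.24, 2.56, 3.13 and 3.5 in the Chrebpα-WT livers and 3.38, 3.02, 3.45 and 5.3 in the Chrebpα-LKO livers, and Col6a2 was at 8.7, 12.4, 7.98 and 10.2 FPKM in the Ad-GFP livers, 9.17, 6.86, 11.1 and 7.09 in the Ad-Chrebpα livers, 1.27, 1.78, 1.42 and 1.95 in the Chrebpα-WT livers and 1.86, 1.76, 2.58 and 3.18 in the Chrebpα-LKO livers. Col6a3 was at 6.83, 11.4, 6.75 and 8.29 FPKM in the Ad-GFP livers, 7.3, 6.45, 9.01 and 6.05 in the Ad-Chrebpα livers, 0.89, 0.98, 1.13 and 1.89 in the Chrebpα-WT livers and 1.66, 1.32, 1.65 and 2.69 in the Chrebpα-LKO livers. The 3 chains had fold changes of -1.64 ± 0.14, -1.99 ± 0.16 and -2.14 ± 0.23, and no control liver of one experiment reached the range of the other. Col14a1, a collagen that sits on the surface of fibrils, was at 24.2, 40.5, 22.2 and 22.7 FPKM in the Ad-GFP livers, 20.2, 20.3, 23.5 and 21.5 in the Ad-Chrebpα livers, 4.87, 6.81, 9.74 and 6.96 in the Chrebpα-WT livers and 7.27, 11.1, 11.3 and 12.1 in the Chrebpα-LKO livers, with a fold change of -1.32 ± 0.22. Col8a1, a short-chain collagen of vessels, was the lowest of the collagens at 0.43, 0.97, 0.49 and 0.69 FPKM in the Ad-GFP livers and 0.08, 0.10, 0.14 and 0.22 in the Chrebpα-WT livers. Its fold change was -1.60 ± 0.34.

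Of the 7 glycoprotein and elastic fibre genes, 6 were lower and Fn1 was higher, with a median of -2.11. Fn1, which encodes fibronectin, a plasma protein of hepatocytes as well as a matrix protein, was at 285, 279.7, 259.8 and 254 FPKM in the Ad-GFP livers, 260.1, 278, 256 and 303 in the Ad-Chrebpα livers, 361, 268, 327 and 315 in the Chrebpα-WT livers and 337, 242, 242 and 213 in the Chrebpα-LKO livers. Its control groups overlapped in FPKM, and in counts it was higher in the Chrebpα-WT livers by 0.86 ± 0.12 (SE; adjusted p = 0.000248, edgeR). Sparc, a collagen-binding glycoprotein, was at 104, 156, 103 and 112 FPKM in the Ad-GFP livers, 85.7, 73.4, 104 and 68.3 in the Ad-Chrebpα livers, 13.7, 16.03, 19.98 and 21.9 in the Chrebpα-WT livers and 20.8, 22.9, 25.5 and 30.7 in the Chrebpα-LKO livers, with a fold change of -2.11 ± 0.16. Eln, which encodes elastin, was at 3.25, 5.22, 4.26 and 4.89 FPKM in the Ad-GFP livers, 4.58, 2.61, 4.69 and 2.53 in the Ad-Chrebpα livers, 0.26, 0.34, 0.38 and 0.44 in the Chrebpα-WT livers and 0.47, 0.43, 0.55 and 0.53 in the Chrebpα-LKO livers. Its fold change was -2.99 ± 0.19. Fbn1, the microfibril protein fibrillin, was at 1.86, 2.93, 1.82 and 1.98 FPKM in the Ad-GFP livers, 1.74, 1.38, 2.35 and 1.61 in the Ad-Chrebpα livers, 0.19, 0.26, 0.31 and 0.36 in the Chrebpα-WT livers and 0.38, 0.32, 0.37 and 0.58 in the Chrebpα-LKO livers, with a fold change of -2.30 ± 0.19.

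The thrombospondins bind matrix and cell receptors, and thrombospondin 1 can activate latent TGF-β. Thbs1 was at 2.67, 2.84, 1.68 and 2.47 FPKM in the Ad-GFP livers, 1.67, 1.66, 2.16 and 1.68 in the Ad-Chrebpα livers, 0.07, 0.1, 0.13 and 0.37 in the Chrebpα-WT livers and 0.28, 0.29, 0.25 and 0.58 in the Chrebpα-LKO livers. Thbs2 was at 1.76, 3.39, 2.51 and 2.97 FPKM in the Ad-GFP livers, 3.15, 2.31, 3.62 and 2.3 in the Ad-Chrebpα livers, 0.44, 0.28, 0.58 and 0.53 in the Chrebpα-WT livers and 0.65, 0.49, 0.56 and 0.75 in the Chrebpα-LKO livers. Their fold changes were -3.21 ± 0.39 and -1.89 ± 0.23, with no overlap of the control groups. Postn, which encodes periostin, a matrix protein of injured tissue, was at 13.8, 19.95, 10.9 and 10.6 FPKM in the Ad-GFP livers, 8.71, 8.61, 9.96 and 8.04 in the Ad-Chrebpα livers, 2.5, 4.08, 2.84 and 3.18 in the Chrebpα-WT livers and 2.5, 3.97, 3.8 and 3.66 in the Chrebpα-LKO livers, and its fold change was -1.51 ± 0.22.

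All 3 crosslinking enzymes, which oxidise lysines of collagen and elastin, were lower, with a median of -2.15. Loxl2 was at 6.9, 10.3, 6.04 and 6.82 FPKM in the Ad-GFP livers, 5.24, 4.6, 6.55 and 4.37 in the Ad-Chrebpα livers, 0.99, 0.89, 1.02 and 1.49 in the Chrebpα-WT livers and 1.21, 1.51, 1.47 and 1.79 in the Chrebpα-LKO livers. Loxl1 was at 4.07, 5.37, 4.15 and 5.51 FPKM in the Ad-GFP livers, 4.42, 4.12, 5.39 and 3 in the Ad-Chrebpα livers, 0.52, 0.67, 0.67 and 1.57 in the Chrebpα-WT livers and 1.35, 0.83, 1.28 and 1.78 in the Chrebpα-LKO livers. Lox was at 1.23, 2.38, 1.26 and 1.76 FPKM in the Ad-GFP livers, 1.27, 1.07, 2.02 and 1.12 in the Ad-Chrebpα livers, 0.1, 0.05, 0.09 and 0.06 in the Chrebpα-WT livers and 0.11, 0.05, 0.02 and 0.15 in the Chrebpα-LKO livers. The fold changes were -2.15 ± 0.18 for Loxl2, -1.86 ± 0.28 for Loxl1 and -3.82 ± 0.29 for Lox. Lox was near the limit of detection on the NASH diet, with as few as 2 counts in a library.

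The 3 proteases were all lower, with a median of -2.69. Mmp13, the main interstitial collagenase of rodents, was at 6.5, 6.36, 4.49 and 4.48 FPKM in the Ad-GFP livers, 3.88, 4.27, 6.89 and 6.4 in the Ad-Chrebpα livers, 0.05, 0.03, 0.07 and 0.19 in the Chrebpα-WT livers and 0.13, 0.19, 0.09 and 0.45 in the Chrebpα-LKO livers. Its fold change of -5.25 ± 0.33 (adjusted p = 2.27e-06, edgeR) was the largest of the 37, and it also fell to 2 counts in a library. Mmp2, a gelatinase of stellate cells and fibroblasts, was at 7.81, 9.61, 8.88 and 9 FPKM in the Ad-GFP livers, 8.79, 8.1, 8.8 and 7.16 in the Ad-Chrebpα livers, 0.64, 0.77, 0.9 and 1.21 in the Chrebpα-WT livers and 1, 0.93, 1.29 and 2.18 in the Chrebpα-LKO livers, a fold change of -2.69 ± 0.15. Mmp14, the membrane-bound protease that activates pro-MMP2, was at 28.2, 32.3, 29.2 and 26.3 FPKM in the Ad-GFP livers, 28.1, 31.6, 29.2 and 29.5 in the Ad-Chrebpα livers, 14.4, 9.39, 10.3 and 13.7 in the Chrebpα-WT livers and 13.8, 9.74, 9.47 and 8.52 in the Chrebpα-LKO livers. It had the smallest difference of the 3, at -0.65 ± 0.13.

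The inhibitors differed from each other. Timp1, the TIMP most induced in liver injury, was at 5.82, 8, 6.7 and 10.8 FPKM in the Ad-GFP livers, 9.37, 6.97, 9.86 and 6.79 in the Ad-Chrebpα livers, 0.57, 0.11, 0.39 and 1.26 in the Chrebpα-WT livers and 1.57, 0.51, 0.58 and 1.86 in the Chrebpα-LKO livers, with a fold change of -3.07 ± 0.43. Timp2, which also takes part in pro-MMP2 activation, was at 17.9, 27.02, 21.3 and 23.1 FPKM in the Ad-GFP livers, 18.5, 21.7, 19.1 and 17.7 in the Ad-Chrebpα livers, 3.74, 6.13, 5.2 and 7.13 in the Chrebpα-WT livers and 5.53, 5.56, 7.27 and 8.17 in the Chrebpα-LKO livers, with a fold change of -1.39 ± 0.17. Timp3, the TIMP bound to matrix, was at 10.3, 21.1, 10.7 and 12.9 FPKM in the Ad-GFP livers, 10.6, 10.1, 12.8 and 11.01 in the Ad-Chrebpα livers, 8.71, 9.69, 7.97 and 14.6 in the Chrebpα-WT livers and 11.6, 12.2, 11.2 and 11.7 in the Chrebpα-LKO livers. Its control groups overlapped, and the difference of 0.20 ± 0.23 (adjusted p = 0.479, edgeR) was not called; its 95% interval was -0.32 to 0.72. On the log2(FPKM + 1) scale it was at -0.37, beside the shift of -0.432 of all genes.

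The proteoglycans of the small leucine-rich family, which bind collagen fibres, were all lower, with a median of -0.99. Dcn (decorin) was at 213, 309.8, 242 and 233 FPKM in the Ad-GFP livers, 226, 247, 269 and 264 in the Ad-Chrebpα livers, 80.6, 84.6, 105 and 105 in the Chrebpα-WT livers and 98.7, 99.2, 88.3 and 134 in the Chrebpα-LKO livers. Bgn (biglycan) was at 143, 234, 158 and 178 FPKM in the Ad-GFP livers, 150.2, 145, 175 and 155 in the Ad-Chrebpα livers, 45.95, 57.6, 61.4 and 66.8 in the Chrebpα-WT livers and 62.1, 67.3, 69.9 and 91.4 in the Chrebpα-LKO livers. Lum (lumican) was at 30.9, 48.2, 37.2 and 43.5 FPKM in the Ad-GFP livers, 41.4, 38.3, 49.02 and 33.4 in the Ad-Chrebpα livers, 4.77, 4.47, 3.93 and 4.78 in the Chrebpα-WT livers and 5.41, 4.57, 4.3 and 7.92 in the Chrebpα-LKO livers. Dcn was the most abundant member after Fn1 in the Ad-GFP livers, at 249 ± 42.1 FPKM (mean ± SD, n = 4). The fold changes were -0.79 ± 0.12 for Dcn, -0.99 ± 0.15 for Bgn and -2.53 ± 0.14 for Lum. Tgfb1, the cytokine that drives collagen expression in stellate cells, was at 26.5, 34.6, 25.5 and 22.6 FPKM in the Ad-GFP livers, 21.8, 24.6, 26.9 and 24.01 in the Ad-Chrebpα livers, 3.07, 3.76, 5.63 and 5.07 in the Chrebpα-WT livers and 7.34, 8.51, 7.6 and 9.55 in the Chrebpα-LKO livers. Every HFLMCD diet liver was above every NASH diet liver, and the fold change between the control groups was -2.01 ± 0.17 (adjusted p = 1.08e-05, edgeR).

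Markers of several other liver cell types also differed in this comparison, in which 30.9% of all genes were called lower and 28.2% higher. Their summed FPKM carries the shift of all genes between the experiments described above. Summed FPKM of 10 macrophage and Kupffer cell markers was 469.3 to 729.5 in the Ad-GFP livers and 42.0 to 91.4 in the Chrebpα-WT livers, with 8 of 10 called lower and 1 higher by edgeR. Myofibroblast, portal fibroblast and smooth muscle markers, among them Acta2 (-2.18 ± 0.20), summed to 36.6 to 49.7 and 9.6 to 16.5, with 6 of the 6 tested called lower. Stellate cell markers summed to 99.7 to 154.0 and 40.7 to 66.8, with 5 of 11 called lower. Endothelial markers summed to 93.4 to 187.6 and 61.1 to 86.8, but in counts 1 of 10 was called lower and 4 were positive (median -0.12). Cholangiocyte markers summed to 9.3 to 17.2 and 2.4 to 7.0, with 3 of 6 called lower, and all 8 hepatocyte markers were called higher, at 41772.1 to 51731.5 and 55981.7 to 66817.3. Their part in the differences of the matrix genes was not tested. Mesothelial markers summed to 5.0 FPKM or less and adipocyte and pancreas markers to 8.0 or less in every liver, with Pnlip listed at 0 in every group but Ad-GFP. Of the 5 mesothelial markers 0 were called.

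**Figure D2:**
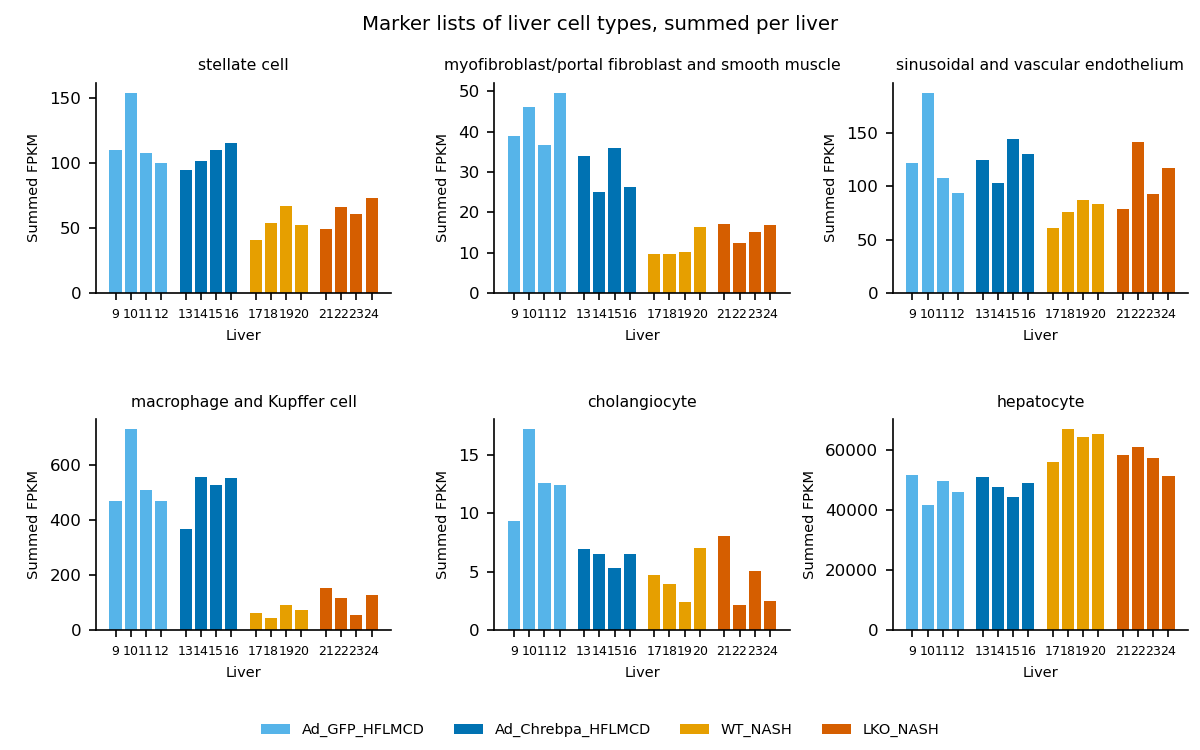
Summed FPKM of marker lists for 6 liver cell types in each liver, as bars coloured by group. Macrophage sums are 469.3 to 729.5 in the Ad-GFP livers and 42.0 to 91.4 in the Chrebpα-WT livers, and hepatocyte sums are higher in the Chrebpα-WT livers.

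**Figure D3:**
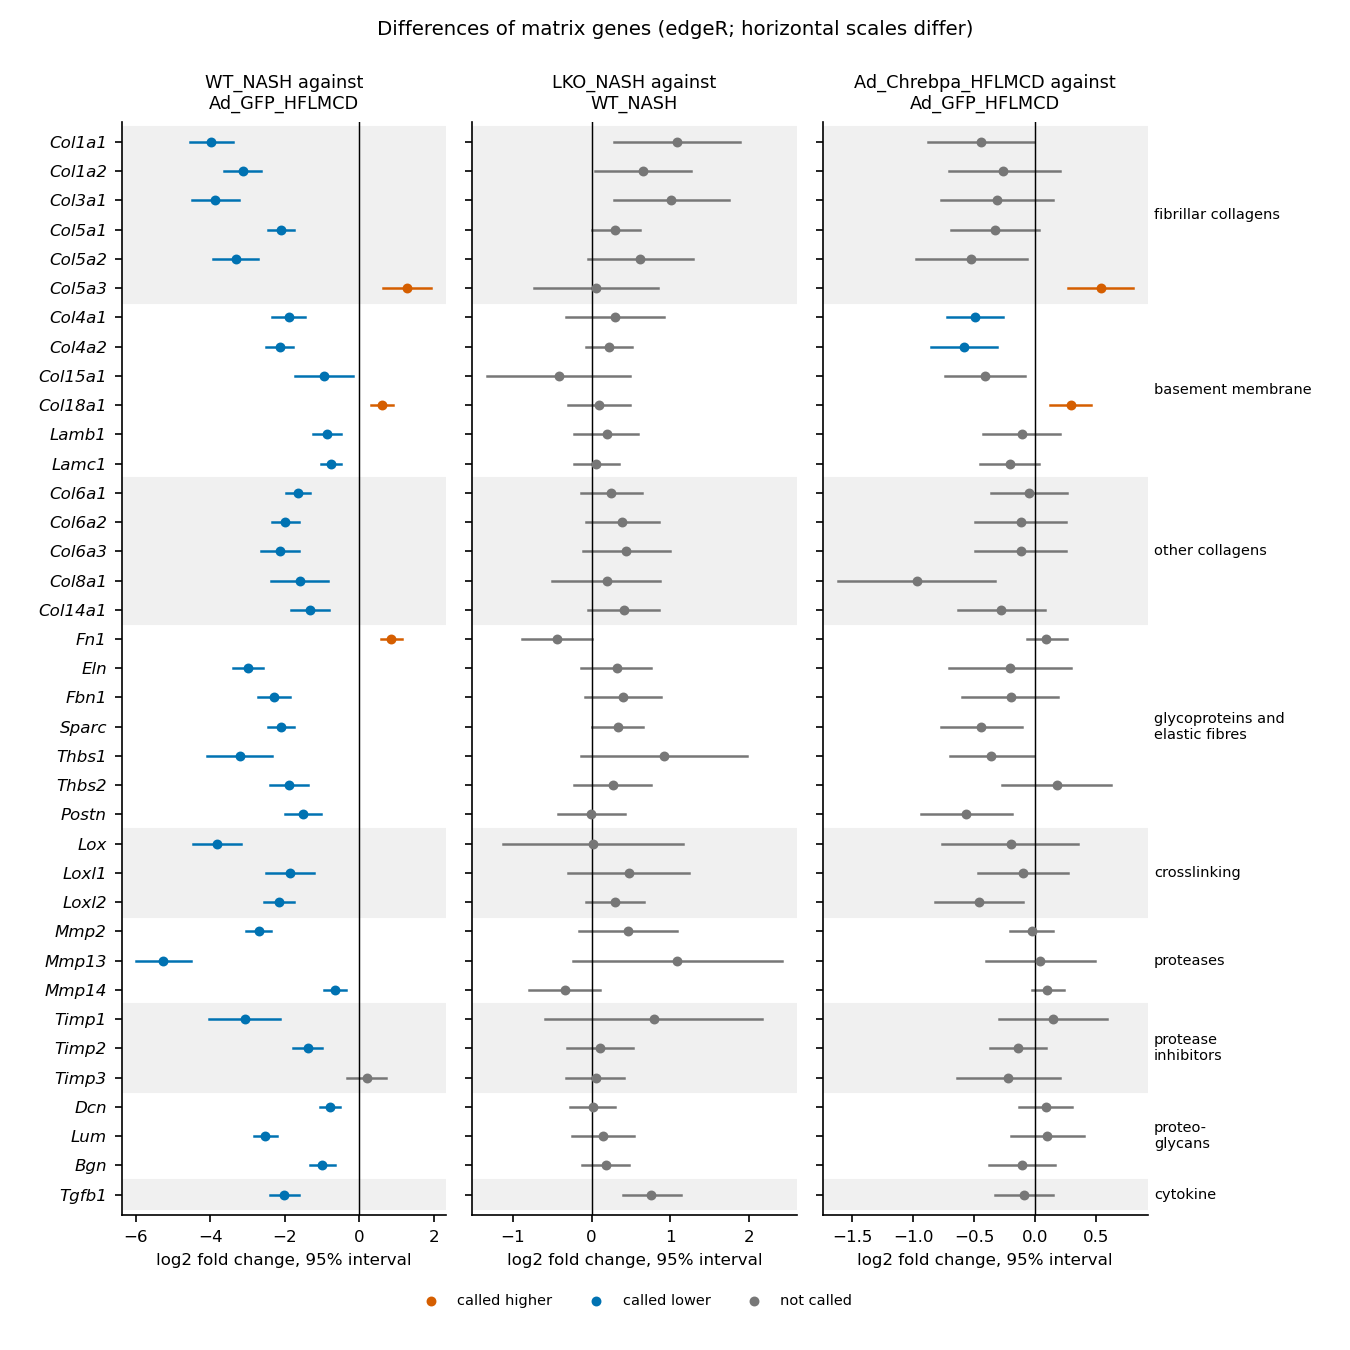
Log2 fold changes of the 37 genes with 95% intervals in 3 comparisons, from edgeR, with calls in colour and a horizontal scale that differs between panels. In the left panel 33 genes are called lower and 3 higher; in the middle panel none is called; in the right panel Col4a1 and Col4a2 are called lower and Col5a3 and Col18a1 higher.

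The second question is how these genes differed with the hepatocyte deletion on the NASH diet. No member was called when the Chrebpα-LKO livers were compared with the Chrebpα-WT livers, but 33 of the 37 had a positive fold change, against 51.5% of all genes. Mmp13, Col1a1, Col3a1, Thbs1, Timp1 and Tgfb1 had the largest values, from 0.76 to 1.09, and Fn1, Mmp14, Col15a1 and Postn were the 4 with negative values. The median over the members was 0.30 (all genes 0.01), and the range was -0.44 to 1.09. Without 1 liver, 29 to 33 members were positive and the median was 0.22 to 0.36. Many members rose and fell together between livers: liver 24 was the highest of the 8 for 27 and liver 17 the lowest for 26. Their signs are therefore not separate observations, and the share of 51.5% is given for description only. edgeR called 0.0% of the 12786 genes tested higher and 0.0% lower, while 5 members had an unadjusted p under 0.05 in the positive direction (7.7% of all genes) and 0 in the negative direction (5.88%). DESeq2 called Tgfb1 alone among the members, and 90 genes higher and 68 lower over all genes. In simulated data of this depth and spread, edgeR recovered 14% of 1.5-fold, 50% of 2-fold and 88% of 3-fold changes. The simulation held 200 changed genes and gave 129 calls, so its adjusted threshold was more lenient than in these data, which gave none. It also drew each gene independently, without differences of whole livers. These shares may therefore be too high for the members.

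By role, the median was 0.63 for the fibrillar collagens, 0.46 for the proteases, 0.39 for the other collagens, 0.32 for the glycoproteins, 0.30 for the crosslinking enzymes, 0.15 for the proteoglycans, 0.14 for the basement membrane genes and 0.11 for the protease inhibitors. Col1a1 was at 6.62 ± 3.64 FPKM in the Chrebpα-LKO livers and 2.80 ± 1.04 in the Chrebpα-WT livers (SD, n = 4), a fold change of 1.08 ± 0.36 (SE; adjusted p = 0.343, edgeR; 95% interval 0.28 to 1.88). Liver 22 at 3.47 lay within the Chrebpα-WT range and liver 24 at 11.8 was far above the others. Without liver 24 the fold change was 0.70, the lowest of the fits that left out 1 liver. Col3a1 had all 4 Chrebpα-LKO livers above the Chrebpα-WT range, with a fold change of 1.01 ± 0.32 (adjusted p = 0.339, edgeR). Col1a2 was at 0.65 ± 0.27 and Col5a2 at 0.62 ± 0.30, both with overlapping groups, and Col5a1 was at 0.30 ± 0.14, with all 4 Chrebpα-LKO livers above the others by a margin of 1.13 against 1.11 FPKM. Without liver 24, Col3a1 was at 0.67, Col1a2 at 0.36 and Col5a2 at 0.41.

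Tgfb1 had the most separated groups, at 7.34 to 9.55 FPKM in the Chrebpα-LKO livers and 3.07 to 5.63 in the Chrebpα-WT livers. Its fold change was 0.76 ± 0.16, the unadjusted p was 0.00104 and the adjusted p was 0.305 (edgeR). It was called by DESeq2 (adjusted p = 0.00928), in 1 edgeR fit of all 16 libraries (0.0362) and by edgeR without liver 21 (0.0474). The fit of all 16 libraries shares its spread with the HFLMCD diet livers, which varied less. Tgfb1 was not called by limma-voom (adjusted p = 0.327), by limma on log2(FPKM + 1) (0.213) or by edgeR with DESeq2 size factors (0.306). Of the 8 edgeR fits that left out 1 liver, 7 did not call it. Its fold change stayed at 0.64 to 0.90 when each liver was left out. In all, 3 members had every Chrebpα-LKO liver above every Chrebpα-WT liver in FPKM (6.93% of all genes did) and 0 had every one below (0.673%).

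Of the other genes, Sparc was at 0.33 ± 0.14, Col6a3 at 0.44 ± 0.25, Col14a1 at 0.41 ± 0.20 and Loxl1 at 0.47 ± 0.34. Low genes had wide intervals: Mmp13 was at 1.09 (95% interval -0.24 to 2.42), Thbs1 at 0.92 (-0.14 to 1.98) and Timp1 at 0.79 (-0.59 to 2.17). Col4a1 was at 0.30 ± 0.27 and Col4a2 at 0.22 ± 0.13. Bgn was at 0.18 ± 0.13 and Mmp2 at 0.46 ± 0.28. Several of these values rested on 1 liver. Without liver 24, Mmp13 was at 0.49, Thbs1 at 0.62, Timp1 at 0.49, Mmp2 at 0.17, Bgn at 0.08 and Col6a3 at 0.25. Without liver 20, the Chrebpα-WT liver with the most members at their highest, Mmp13 was at 1.72, Thbs1 at 1.61, Timp1 at 1.42, Loxl1 at 0.89 and Col6a3 at 0.68. Col4a1 was at 0.01 without liver 21, and without liver 17 Col4a2 was at 0.11, Loxl1 at 0.31 and Col14a1 at 0.27. On the negative side, Fn1 was at -0.44 ± 0.20, Mmp14 at -0.34 ± 0.20 and Col15a1 at -0.42 ± 0.40. In Fn1 and Mmp14, liver 21 was the highest of the Chrebpα-LKO livers, at 337 and 13.8 FPKM, and the other 3 were at 213 to 242 and 8.52 to 9.74.

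Leaving out livers 19 and 21 together, an alternative chosen after seeing the data, moved some of these results. These livers were picked by their place on the first principal component of the same libraries. Leaving them out therefore parts the groups further by construction, and the calls it gave are no independent support for a difference. edgeR then called 3 members higher and 0 lower, over 36 members tested, against 4.84% of all genes higher and 7.05% lower: Tgfb1 (0.93, adjusted p = 0.0227), Col14a1 (0.71, 0.0255) and Col5a3 (0.68, 0.0308, against 0.06 ± 0.35 with all livers). Col5a3 was at 5.19 to 5.50 FPKM in livers 22 to 24 and at 2.25 to 3.33 in livers 17, 18 and 20, while liver 21 was at 2.66 and liver 19 at 7.33. The members' median was then 0.34, with 31 positive. Over all genes, edgeR called 621 higher and 904 lower without these livers, and 166 higher and 254 lower without liver 21 alone.

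Marker lists in the same livers overlapped between the groups in summed FPKM. Macrophage markers summed to 42.0 to 91.4 in the Chrebpα-WT livers and 55 to 153.1 in the Chrebpα-LKO livers, with 10 of 10 positive (median 0.76) and 0 called. Myofibroblast markers summed to 9.6 to 16.5 and 12.4 to 17.2, with 5 of 6 positive (median 0.76), and stellate cell markers to 40.7 to 66.8 and 49.3 to 73.0, with 8 of 11 positive (median 0.07). Endothelial markers summed to 61.1 to 86.8 and 78.9 to 141.8, with 9 of 10 positive (median 0.32). Hepatocyte markers summed to 55981.7 to 66817.3 and 51290.7 to 61117.2, with 1 of 8 positive (median -0.33). Of the cholangiocyte markers 1 of 5 was positive (median -0.20) and of the mesothelial markers 2 of 5 (median -0.05). edgeR called 0 genes of these lists, and their part in the members' positive values was not tested.

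The third question is how these genes differed with adenoviral ChREBPα on the HFLMCD diet. The collagen IV chains Col4a1 and Col4a2 were lower in the livers labelled Ad-Chrebpα than in the Ad-GFP livers, Col5a3 and Col18a1 were higher, and 33 members were not called. In all, 2 of 37 were called higher (4.95% of all genes tested were) and 2 lower (3.18%), by edgeR over 13658 genes. A positive fold change was seen in 9 members, against 47.4% of all genes, and the median was -0.20 (all genes -0.01), with a range of -0.97 to 0.54. An unadjusted p under 0.05 was seen in 10 members in the negative direction (13.0% of all genes) and 2 in the positive direction (13.5%). Of all called genes 60.9% were higher in counts, and 30.2% on the log2(FPKM + 1) scale.

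Col4a2 was at 12.9 to 15.9 FPKM in the Ad-Chrebpα livers and 19.3 to 30.1 in the Ad-GFP livers, and Col4a1 at 21.0 to 27.3 and 31.0 to 43.3. Neither overlapped. The fold changes were -0.58 ± 0.12 (SE; adjusted p = 0.0213, edgeR) for Col4a2 and -0.49 ± 0.10 (adjusted p = 0.0217, edgeR) for Col4a1. Ad-GFP liver 10 was far above its group for both, and without it they were still called, at -0.43 (adjusted p = 0.015) and -0.38 (adjusted p = 0.0317). Without liver 13 the adjusted p-values were 0.0658 and 0.066, and without liver 16 they were 0.0608 and 0.0744. In 1 fit of all 16 libraries, which called 1.71% of all genes higher and 0.723% lower, Col4a2 was still called (adjusted p = 0.0345, edgeR) and Col4a1 was not (0.315). In all, 4 members had every Ad-Chrebpα liver below every Ad-GFP liver (14.5% of all genes) and 1, Col5a3, had every one above (4.84%).

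Col5a3 was at 2.71 to 4.21 FPKM in the Ad-Chrebpα livers and 2.44 to 2.65 in the Ad-GFP livers, a fold change of 0.54 ± 0.12 (adjusted p = 0.0273, edgeR). Col18a1 was at 167 to 191 and 150.4 to 169.7, a fold change of 0.29 ± 0.08 (adjusted p = 0.0446, edgeR), and liver 15 lay within the Ad-GFP range. Both are near the threshold. Of 8 edgeR fits that left out 1 liver, Col5a3 was called in 1 (without liver 14) and Col18a1 in 2 (without liver 9 or 15), with adjusted p-values up to 0.075 and 0.124. In the fit of all 16 libraries they were at 0.361 and 0.267 (edgeR) and not called.

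**Figure D4:**
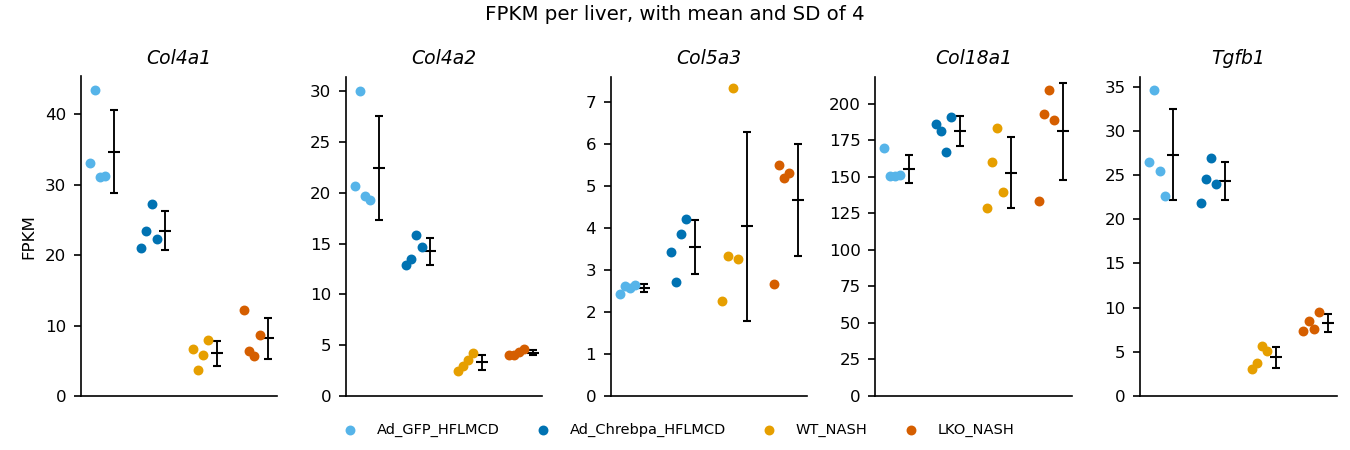
FPKM per liver for 5 members, with the mean and SD of the 4 livers of each group beside the points. Col4a1 and Col4a2 in the Ad-Chrebpα livers lie below the Ad-GFP livers, Col5a3 lies above them, and Tgfb1 in the Chrebpα-LKO livers (7.34 to 9.55) lies above the Chrebpα-WT livers (3.07 to 5.63).

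Next by p-value were Col8a1 at -0.97 ± 0.29, the lowest fold change of the 37, and Postn at -0.57 ± 0.17. Each had no overlap, and the adjusted p-values were 0.0661 and 0.0673 (edgeR). DESeq2 called both lower, and Sparc (-0.44 ± 0.15) too. It called 6.29% of all genes lower, against 3.18% by edgeR. The fibrillar collagens other than Col5a3 had values of -0.26 to -0.53 without a call: Col1a1 at -0.44 ± 0.20, Col1a2 at -0.26 ± 0.20, Col3a1 at -0.31 ± 0.21, Col5a1 at -0.33 ± 0.16 and Col5a2 at -0.53 ± 0.21. Loxl2 was at -0.46 ± 0.16, Col15a1 at -0.41 ± 0.15 and Thbs1 at -0.36 ± 0.15. Tgfb1 was at -0.09 ± 0.11 (95% interval -0.33 to 0.15), Fn1 at 0.09 ± 0.07, Mmp14 at 0.10 ± 0.06 and Timp1 at 0.15 ± 0.20.

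The number of negative values changed without liver 10. Without it the members' median was -0.04, 15 were positive, Col1a2 was at -0.07, Col3a1 at -0.13 and Postn at -0.36, while Col4a1 and Col4a2 kept their calls. Liver 10 had the highest FPKM of the 8 HFLMCD diet livers for 29 of the 37 genes, with a median of 0.48 on the log2 scale relative to the mean of the 8. It also had the highest summed macrophage (729.5), endothelial (187.6), stellate cell (154.0) and cholangiocyte (17.2) markers of all 16 livers, and the lowest hepatocyte markers (41772.1). Among the Ad-Chrebpα livers, liver 15 was highest for 30 members. Of the marker lists, edgeR called 5 of 6 cholangiocyte genes lower in the Ad-Chrebpα livers, among them Krt19 (-1.22 ± 0.20), at a summed 5.3 to 7.0 FPKM against 9.3 to 17.2. Myofibroblast markers were at 25.0 to 36.0 against 36.6 to 49.7 with 0 of 6 called, and macrophage markers at 367.5 to 556.8 against 469.3 to 729.5 with 0 of 10 called. Stellate cell markers were at 94.8 to 114.9 against 99.7 to 154.0, with 0 of 11 called lower and Ngfr called higher, endothelial markers at 103.4 to 144.0 against 93.4 to 187.6 with 0 of 10 called, and hepatocyte markers at 44359.4 to 50876.8 against 41772.1 to 51731.5 with Apoa1 called higher. Their part in the members' values was not tested.

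Livers of the NASH diet also differed from each other across the members. Liver 24 was the highest of the 8 for 27 genes (median 0.50 relative to their mean), and liver 17 the lowest for 26 (median -0.63). Liver 24 had the lowest hepatocyte marker sum of the 8, at 51290.7, and the highest stellate cell sum, at 73.0. It was not the highest for the other liver cell types. Its macrophage sum was 127.6, against up to 153.1 in its group. Its endothelial sum was 116.8, against up to 141.8, and its myofibroblast sum 16.8, against up to 17.2. Liver 17 had the lowest stellate cell sum of the 8, at 40.7, but also the lowest hepatocyte sum of the Chrebpα-WT livers, at 55981.7. Among the Chrebpα-WT livers, liver 20 was highest for 26 members.

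**Figure D5:**
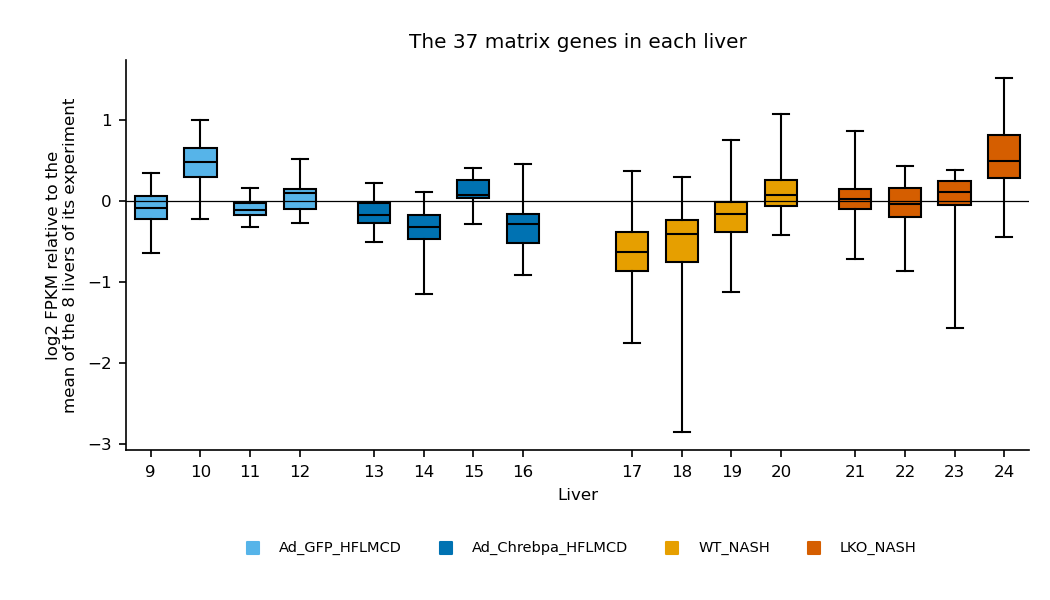
Log2 FPKM of the 37 genes in each liver relative to the mean of the 8 livers of its experiment (median line, box from quartile to quartile, whiskers to the extremes). Liver 10 (median 0.48) and liver 24 (median 0.50) sit above the other livers of their experiments, and liver 17 (median -0.63) sits below.

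The effects of the 2 manipulations were then compared in 1 model of 16 livers, as the deletion effect minus the overexpression effect. Tgfb1 and Col4a2 were called, both with the deletion effect above the overexpression effect, and 31 of the 37 differences were positive against 50.3% of all genes. Tgfb1 had a difference of 0.83 ± 0.20 (SE; adjusted p = 0.0409, edgeR) and Col4a2 one of 0.78 ± 0.19 (adjusted p = 0.0414, edgeR). Thus 2 of 37 were called higher (0.976% of all genes tested) and 0 lower (1.62%). The members' median was 0.54 (all genes 0.00). Without 1 liver, 28 to 32 were positive and the median was 0.38 to 0.64. As above, members that move together between livers are not separate observations. Of all called genes 37.6% were higher in counts and 90.0% on the log2(FPKM + 1) scale. The 2 manipulations differ in diet, length, virus and mouse line as well. Every fit of all 16 libraries also shares 1 spread per gene between the experiments, although they differed in spread. The coefficient of variation between livers in edgeR was 0.221 for the deletion fit and 0.126 for the overexpression fit. Adjusted p-values of such fits may therefore be too low for genes that vary more on the NASH diet.

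Both calls lay near the threshold: of 16 fits that left out 1 liver, each gene was called in 4 (without liver 12, 19, 20 or 21), with adjusted p-values up to 0.0922 for Tgfb1 and 0.0879 for Col4a2 (edgeR). Without livers 19 and 21 together, 7 members were called higher and 2 lower, while 9.09% of all genes tested were called higher and 9.52% lower. As above, this choice parts the NASH diet groups by construction, so these calls are no independent support. The 7 were Tgfb1 (1.04, against 0.83 with all livers), Col14a1 (1.01), Col4a2 (0.86), Sparc (0.90), Col3a1 (1.57), Col1a1 (1.71) and Col5a1 (0.77), and the 2 were Fn1 (-0.69) and Mmp14 (-0.70). With all 16 livers these values were 0.66 ± 0.28 for Col14a1, 0.75 ± 0.22 for Sparc, 1.30 ± 0.42 for Col3a1, 1.5 ± 0.44 for Col1a1, 0.61 ± 0.23 for Col5a1, -0.56 ± 0.21 for Fn1 and -0.47 ± 0.22 for Mmp14. DESeq2 on all 16 livers called 3.69% of all genes higher and 3.65% lower, and 6 members higher: the 2 above with Col1a1, Col3a1, Col5a2 (1.11 ± 0.38 in edgeR) and Sparc.

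Other genes of the matrix pathways were counted in the same fits. Between the control groups, 61.1% of the 144 list genes tested were called lower and 11.1% higher, against 30.9% and 28.2% of all genes. In the comparison of the control groups, edgeR called 14 of 25 collagen processing genes lower and 2 higher. Among these genes, which encode enzymes that modify, fold or trim procollagen and proteins that assist them, P4ha1 was at -1.31 ± 0.11, Pcolce at -1.52 ± 0.12 and Crtap at -1.52 ± 0.14. Of 27 other proteases and inhibitors 21 were lower and 3 higher, with Plau, the urokinase plasminogen activator, at -2.91 ± 0.20 and its receptor Plaur at -3.09 ± 0.24. Of 13 other basement membrane genes 9 were lower and 1, Lama3, higher (1.43 ± 0.20), with Nid1, which links laminin to collagen IV, at -2.64 ± 0.15. Of 26 other glycoproteins and proteoglycans 15 were lower and 5 higher, among them the heparan sulfate proteoglycan Sdc4 (1.41 ± 0.16). Of 24 genes of TGF-β and PDGF signalling 14 were lower and 2 higher, with the latent TGF-β binding protein Ltbp2 at -4.41 ± 0.32 and the growth factor Pdgfa at -1.85 ± 0.14. Ltbp2 was very low in the Chrebpα-WT livers, at 0.05 ± 0.0365 FPKM (SD, n = 4). Of 13 integrins and collagen receptors 10 were lower and 0 higher, with the hyaluronan receptor Cd44 at -2.78 ± 0.16 and the collagen receptor Ddr1 at -2.56 ± 0.24. Of 16 other collagen chains 5 were lower, near the share over all genes, and 3 higher, with Col4a5 at -2.48 ± 0.26.

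With the deletion, 0 genes of these 7 lists were called in either direction, as over all genes. List medians ran from 0.07 for the integrins to 0.31 for the basement membrane genes, with Lamb3 at 0.79 ± 0.18 (adjusted p = 0.305, edgeR). With adenoviral ChREBPα, 8 of the 146 list genes tested were called, 2 higher (1.37%, against 4.95% of all genes) and 6 lower (4.11%, against 3.18%). Those lower were the collagen chains Col4a5 (-0.65 ± 0.15) and Col12a1 (-0.64 ± 0.16), the prolyl hydroxylase complex member P3h4 (-1.16 ± 0.17), the transglutaminase Tgm2 (-0.35 ± 0.09), the protease Adamts1 (-0.62 ± 0.15) and the integrin Itga3 (-0.40 ± 0.09). The metalloelastase Mmp12 (0.37 ± 0.08) and Sdc4 (0.62 ± 0.13) were higher. Nid1 was at -0.52 ± 0.14 (adjusted p = 0.055, edgeR), and 1 of the 13 basement membrane genes of that list had a positive value. In the difference of effects, 3 of the 149 list genes tested were called higher (2.01%, against 0.976% of all genes) and 0 lower (against 1.62%). They were P3h4 (1.40 ± 0.31), Adamts1 (1.02 ± 0.24) and Ltbp2 (1.72 ± 0.41). Ltbp2 was very low on the NASH diet, at 0.165 ± 0.0545 FPKM in the Chrebpα-LKO livers and 0.05 ± 0.0365 in the Chrebpα-WT livers (SD, n = 4).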

How the data were processed

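RNA from 16 mouse livers was sequenced in 4 groups of 4. The submitters' processing notes name HISAT2, a read aligner; the counting program, genome build, annotation and strand setting were not given in the sources used here. The authors deposited 1 table per liver with an expected count and an FPKM value per gene, per the file headers. Expected counts are estimates that need not be whole, and the deposited FPKM values are scaled to transcript length and library size. Rows split by transcript (26) were summed to their gene, giving 17410 genes, and the expected counts were rounded to whole numbers.

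The fits used edgeR 4.0.16 in R 4.3.3 on all genes, with filterByExpr, TMM scaling, a quasi-likelihood F-test (two-sided) and Benjamini-Hochberg adjustment over all genes tested, called at an adjusted p under 0.05 with no minimum fold. Comparisons were Chrebpα-LKO against Chrebpα-WT, Ad-Chrebpα against Ad-GFP, Chrebpα-WT against Ad-GFP, and the difference of the first and second effects. Positive fold changes mean higher in the group named first. The script was tested on simulated counts with 200 changed genes per comparison. Alternatives were DESeq2 1.42.0, its size factors, limma 3.58.1 (voom, and log2(FPKM) with pseudocounts of 1 and 0.1), other filters, a fold of 1.5 and leaving out each liver. Sums over marker genes and lists of other matrix genes used FPKM and the same fits; Ccn1 and Ccn2 were matched as Cyr61 and Ctgf. The rule for naming genes was each member called, and, of other lists, up to 3 called genes with the lowest p or the 1 with the lowest p. The 37 members, the lists and the tests were chosen with earlier results of these data known. Promoter sequences came from RefSeq.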

Additional observations from a re-analysis of the deposited data

Results flagged for a closer look

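In groups of 4 livers, a liver whose gap to its nearest neighbour took more of the group's range than Dixon's 95% critical value was singled out. Of 148 groups tested (37 genes in 4 groups) 12 met this; chance gives about 1 in 20.

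Liver 10 (Ad-GFP) accounted for 6 of the 12, each time as the highest of its group: Col4a1 at 43.34 FPKM (others 31.0 to 33.04), Col4a2 at 30.06 (19.3 to 20.7), Lamb1 at 5.7 (3.64 to 3.98), Col14a1 at 40.49 (22.18 to 24.17), Fbn1 at 2.93 (1.82 to 1.98) and Sparc at 156.41 (103.21 to 111.51). In the same group, liver 9 was highest for Col18a1, at 169.72 FPKM (150.4 to 151.15). Liver 15 (Ad-Chrebpα) was highest for Thbs1, at 2.16 (1.66 to 1.68).

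On the NASH diet, liver 24 (Chrebpα-LKO) was highest for Col3a1, at 14.95 FPKM (6.14 to 7.6), and for Thbs1, at 0.58 (0.25 to 0.29). Liver 21 of the same group was lowest for Col5a3, at 2.66 (5.19 to 5.5). Liver 20 (Chrebpα-WT) was highest for Loxl1, at 1.57 (0.52 to 0.67).

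The deletion and overexpression effects differed by the test of the difference itself for Tgfb1, by 0.83 on the log2 scale, and for Col4a2, by 0.78.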

How the results depend on the processing

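No paired analysis was possible because the groups share no replicate numbers. The count of members called moved as follows. In the deletion comparison it was 0 higher in the main test (0 of all genes), 1 with DESeq2 (90) and 1 with all 16 libraries in 1 fit (86). It was 3 without livers 19 and 21 (621 of all genes), and 0 to 1 without 1 liver. In the overexpression comparison, 2 higher (676 of all genes) became 1 with log2(FPKM + 1) (436) or log2(FPKM + 0.1) (449). They became 0 with log2(FPKM + 1) unfiltered (360), with all 16 libraries (236) or with a fold of 1.5, and 0 to 1 without 1 liver. The 2 lower (434 of all genes) became 5 with DESeq2 (842), 1 with all 16 libraries (100) and 0 with a fold of 1.5. Without 1 liver they were 0 to 3: 0 without liver 13 (185 of all genes) or 16 (137), and 3 without liver 11 (223). Between the control groups, 3 higher became 0 on each of the 3 FPKM scales; the 33 lower stayed at 32 to 33 without 1 liver. In the difference of effects, 2 higher (135 of all genes) became 6 with DESeq2 (500), 5 with log2(FPKM + 1) (928) or log2(FPKM + 0.1) (876), 7 without livers 19 and 21 (1267), and 0 to 6 without 1 liver; 0 lower became 2 without livers 19 and 21, and 0 to 2 without 1 liver. Fewer samples were fitted where livers were left out, and livers 19 and 21 were picked from the same data. Otherwise the cause was not tested.

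These members named in the text changed sign. Between the control groups, Col18a1 was at -0.03, -0.04 and -0.03 and Timp3 at -0.37, -0.40 and -0.37 with log2(FPKM + 1), log2(FPKM + 0.1) and log2(FPKM + 1) unfiltered. With the deletion, Col4a1 was at -0.02 without livers 19 and 21. Without 1 liver, Col5a3 ranged from -0.14 to 0.50 and Col15a1 from -0.65 to 0.05 in the deletion comparison, and Tgfb1 from -0.16 to 0.02 in the overexpression comparison. Postn, at -0.01 in the deletion comparison, ranged from -0.09 to 0.16 in such fits. Over all 37 members, 10 changed sign in at least 1 such fit of the deletion comparison, 9 of the overexpression comparison, 5 of the difference of effects and 0 of the control groups.

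Lox, Mmp13 and Timp1 fell to 2 counts in a library, which limits their precision on the NASH diet.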
